A study of Rattus norvegicus with 20 samples.

Results

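Atp2a2, Ryr2 and Gja1 encode the calcium pump of the sarcoplasmic reticulum (SERCA2), the cardiac ryanodine receptor and the gap junction protein connexin 43. Their levels were followed in heart ventricles of wildtype (WT) and Vegfb knockout (VegfbKO) rats with and without diabetes. The members were named by their Ensembl IDs, which were ENSRNOG00000001285 for Atp2a2, ENSRNOG00000017060 for Ryr2 and ENSRNOG00000000805 for Gja1. All 3 IDs were in the count table of 24059 IDs, none was missing, and 3 of 3 passed the filter on low counts, which left 14293 genes tested.

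The study sequenced bulk ventricular RNA from male Sprague Dawley rats in 4 groups of 5, with 1 library per rat. WT control and VegfbKO control rats had no streptozotocin named in their labels, and WT diabetic and VegfbKO diabetic rats received 55 mg/kg intravenously and were sampled on day 4 of diabetes. Streptozotocin kills the insulin-producing beta cells of the pancreas. The knockout was global, in every tissue, and was made with zinc-finger nucleases that disrupted Vegfb with an inserted lacZ gene, which the sources call both beta-glucosidase and beta-galactosidase. The sample labels gave the age as 9 weeks, while the series text speaks of housing until a younger age. The total count per library was between 7314287 and 26664479 in WT controls, 12965611 and 23399247 in WT diabetic rats, 18334499 and 24387305 in VegfbKO controls, and 7220469 and 21935785 in VegfbKO diabetic rats. The level of the Vegfb gene itself was not read here, because the count table lists IDs without names and no table used here pairs them, so the genotypes were taken from the labels.

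Of the 20 libraries, 2 stood apart from the rest. In WT diabetic replicate 2 and VegfbKO diabetic replicate 1, 3 IDs together held 37.2% and 40.3% of the count, against at most 8.51% in any of the other 18 libraries. Their scaling factors from the trimmed mean of M-values (TMM) were 0.729 and 0.693, and those of the other 18 libraries were between 0.935 and 1.17. The TMM factor corrects a library's total for such a shift, and levels are given below as CPM, the count relative to the library total after this correction. Comparisons of diabetic rats are given with these libraries and, as a separate value, without both.

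In a heart muscle cell, calcium released from the sarcoplasmic reticulum starts each contraction, and its return to that store allows relaxation. The ryanodine receptor is the release channel of the store, and SERCA2 pumps calcium back into it from the cytosol. Connexin 43 forms channels that join neighbouring ventricular muscle cells at the intercalated discs and carry the electrical impulse from cell to cell.

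The sequences just upstream of the 3 genes are shown because Atp2a2 and Gja1 were both lower in WT diabetic than in WT control hearts. They come from the RefSeq promoter table of build GRCr8, in which 3 of 3 members matched by symbol, and all 3 genes lie on the plus strand. The windows are chr12:39733269-39733518 for Atp2a2, chr17:63081277-63081526 for Ryr2 and chr20:36302314-36302489 for Gja1, of 250, 250 and 176 bases, each ending at the base before the annotated gene start. The Gja1 window is shorter because the promoter table places the start of Gja1 74 bases downstream of the start in the RefSeq gene table, and the bases between these starts were left out. Capitals mark matches, on either strand and with overlaps allowed, to any of 7 motifs. These were the TATA box (TATAA), the CCAAT box (CCAAT), the GC box that Sp1 proteins bind (GGGCGG), the AP-1 motif (TGANTCA), the E-box (CANNTG), the forkhead motif (GTAAACA) and the core of nuclear receptor motifs (AGGTCA).
Atp2a2: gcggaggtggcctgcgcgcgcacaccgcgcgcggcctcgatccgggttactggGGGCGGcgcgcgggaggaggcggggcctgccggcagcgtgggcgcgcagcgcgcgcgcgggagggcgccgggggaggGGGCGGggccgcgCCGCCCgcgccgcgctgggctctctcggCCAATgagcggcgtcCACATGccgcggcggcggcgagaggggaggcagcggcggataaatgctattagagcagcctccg
Ryr2: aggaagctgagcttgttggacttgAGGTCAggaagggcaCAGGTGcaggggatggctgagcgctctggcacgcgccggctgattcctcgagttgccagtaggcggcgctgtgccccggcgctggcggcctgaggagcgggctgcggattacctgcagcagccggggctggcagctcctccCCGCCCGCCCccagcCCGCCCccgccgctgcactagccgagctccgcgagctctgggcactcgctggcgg
Gja1: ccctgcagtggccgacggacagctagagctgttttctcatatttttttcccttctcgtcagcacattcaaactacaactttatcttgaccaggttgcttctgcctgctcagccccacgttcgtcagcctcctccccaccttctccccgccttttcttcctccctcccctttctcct

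The Atp2a2 window held 3 matches to GGGCGG, 1 to CCAAT and 1 to CANNTG. The Ryr2 window held 3 matches to GGGCGG, 1 to CANNTG and 1 to AGGTCA. The 176 bases of Gja1 held no match to any of the 7 motifs, and its remaining bases up to the start in the promoter table were not searched. Among 33469 promoters in the table, 30.5% held GGGCGG, 34.0% CCAAT, 65.5% CANNTG and 14.1% AGGTCA in the first 250 bases. In the first 176 bases of these windows, counted like those of Gja1 from the upstream end and not from the gene start, 20.3% held GGGCGG and 53.6% CANNTG. The share of G and C was 80.0% in the Atp2a2 window, 72.0% in that of Ryr2 and 53.4% in that of Gja1, and the median over the 250-base windows of the table was 51.2%. The matches describe these letters only.

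Atp2a2, the pump that returns calcium to the store, was lower in diabetic than in control hearts of WT rats. Its level in WT control replicates 1 to 5 was 8844, 8638, 6739.6, 8532 and 8341 CPM. In WT diabetic replicates 1 to 5 it was 5459, 5808, 7413, 5498 and 5893 CPM. The level of 4 of 5 diabetic hearts was below that of every control heart, and the groups overlapped through WT control replicate 3, which was low, and WT diabetic replicate 3, which was high. The mean was 8219 ± 847 CPM in controls and 6014 ± 805 CPM in diabetic rats (SD, n = 5 each).

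The log2 fold change of Atp2a2 with diabetes in WT was -0.45 (standard error 0.10, 95% confidence interval -0.66 to -0.24, adjusted p = 0.00407 by quasi-likelihood in edgeR, adjusted after Benjamini and Hochberg), a level 26.8% lower. A gene is named as called where the adjusted p over all genes tested was under 0.05 and the absolute log2 fold change above 0.27, and Atp2a2 was called. Without both libraries that stood apart, the log2 fold change was -0.44 (adjusted p = 0.00653 from the same test). With totals in place of TMM factors the value was -0.49 but the call was lost (adjusted p = 0.205). In bulk tissue, fewer cells that express a gene and less RNA per cell cannot be told apart, which holds for each of the 3 genes. Counts per gene do not separate the splice forms of Atp2a2.

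In VegfbKO rats, Atp2a2 was measured at 8492, 8355, 8188, 9248 and 8361 CPM in control replicates 1 to 5. In VegfbKO diabetic replicates 1 to 5 it was at 6522, 6326, 6919, 7589.5 and 7857 CPM. All 5 diabetic hearts were below all 5 control hearts, which was the case for 4.76% of the genes tested. The mean was 8529 ± 416 CPM in controls and 7043 ± 664 CPM in diabetic rats (SD, n = 5 each). The log2 fold change was -0.28 (standard error 0.10, 95% confidence interval -0.49 to -0.06), and the gene was not called (adjusted p = 0.105 from edgeR). DESeq2 gave the same log2 fold change of -0.28 and called it (adjusted p = 0.0249). The exact two-sided permutation test on log2 CPM gave an unadjusted p = 0.00794, the smallest that 5 against 5 rats can give. Any gene whose groups do not overlap gets this p, so it only restates the lack of overlap. The value was -0.26 without both libraries apart (adjusted p = 0.140 from edgeR).

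Between genotypes, Atp2a2 in control hearts had a log2 fold change of 0.05 in VegfbKO against WT (95% confidence interval -0.16 to 0.27, adjusted p = 1.00 from edgeR). The sign of this small value depended on WT control replicate 3, without which it was -0.010, and the value was 0.013 with total counts only and 0.082 without WT control replicate 1. In diabetic hearts the log2 fold change was 0.23 in VegfbKO against WT (95% confidence interval 0.02 to 0.44), with 2 of 5 VegfbKO diabetic rats above every WT diabetic rat. That difference was not called (adjusted p = 0.527 from edgeR, and p = 0.0476 unadjusted from the exact permutation test on log2 CPM). Leaving out both libraries apart gave 0.24 (adjusted p = 0.455 from edgeR).

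**Figure D1:**
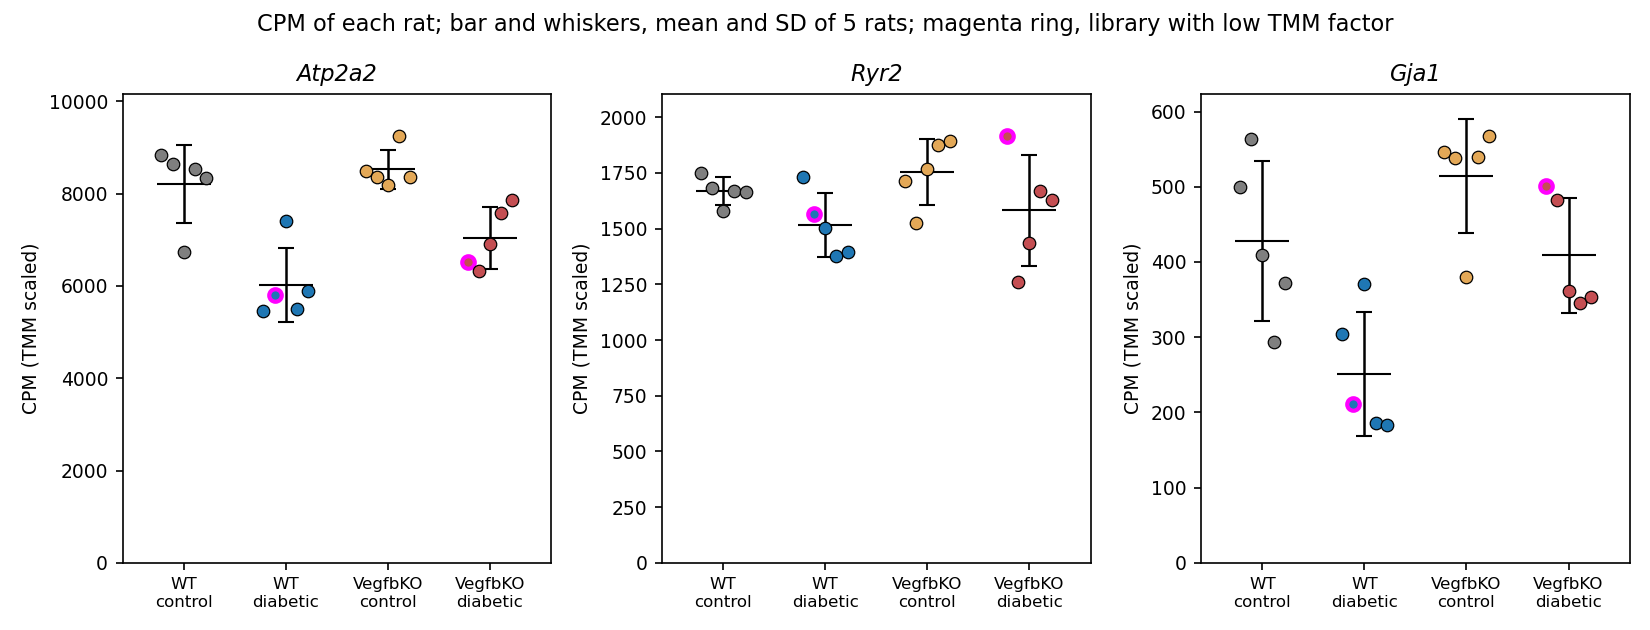
TMM-scaled CPM of Atp2a2, Ryr2 and Gja1 in each of the 20 hearts by group, on axes that start at 0, with the mean (long bar) and SD (whiskers) of 5 rats and a magenta ring around WT diabetic replicate 2 and VegfbKO diabetic replicate 1. The mean of Atp2a2 is 8219 CPM in WT control and 6014 CPM in WT diabetic rats, that of Gja1 428 and 251 CPM, and that of Ryr2 1669 and 1515 CPM.

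Ryr2, the release channel, differed least between diabetic and control hearts of the WT among the 3 genes. It was at 1751, 1682, 1578, 1668 and 1665 CPM in WT control replicates 1 to 5. In WT diabetic replicates 1 to 5 it was at 1730.0, 1566, 1505, 1376 and 1395 CPM. The level of 4 of 5 diabetic hearts was below that of every control heart, and WT diabetic replicate 1 lay among the controls. The mean was 1669 ± 61.5 CPM in controls and 1515 ± 144 CPM in diabetic rats (SD, n = 5 each). With a log2 fold change of -0.14 (standard error 0.10, 95% confidence interval -0.34 to 0.06), Ryr2 was not called (adjusted p = 0.393 from edgeR). With both libraries apart left out it was -0.16 (adjusted p = 0.308 from edgeR).

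In VegfbKO rats, Ryr2 was at 1714, 1524, 1769, 1876 and 1894 CPM in control replicates 1 to 5. In VegfbKO diabetic replicates 1 to 5 it was at 1915, 1259, 1438, 1669 and 1630.2 CPM. VegfbKO diabetic replicate 1, a library that stood apart, was the highest of all 20, and 2 of 5 diabetic hearts were below every control. The mean was 1756 ± 149 CPM in controls and 1582 ± 248 CPM in diabetic rats (SD, n = 5 each). Diabetes in VegfbKO gave a log2 fold change of -0.15 (standard error 0.10, 95% confidence interval -0.35 to 0.05, adjusted p = 0.411 from edgeR). Leaving out both libraries apart gave -0.23, which was not called either (adjusted p = 0.133 from edgeR). The value also moved toward 0, to -0.079, without VegfbKO diabetic replicate 2, the heart with the lowest level.

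The genotype comparisons of Ryr2 gave small differences. The log2 fold change of VegfbKO against WT was 0.07 in controls (95% confidence interval -0.13 to 0.28, adjusted p = 1.00 from edgeR) and 0.06 in diabetic rats (95% confidence interval -0.14 to 0.27, adjusted p = 0.909). In controls the value ranged from 0.044 without VegfbKO control replicate 5 to 0.12 without VegfbKO control replicate 2, and it was 0.037 with total counts only. In diabetic rats the sign rested on VegfbKO diabetic replicate 1, since the log2 fold change was -0.017 without that library and -0.00311 without both libraries apart, and it was 0.13 without VegfbKO diabetic replicate 2.

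Gja1, which encodes the gap junction protein, had the largest difference with diabetes in WT hearts among the 3 genes and also the largest spread between rats. It was at 499, 564, 409.6, 294 and 372 CPM in WT control replicates 1 to 5. In WT diabetic replicates 1 to 5 it was at 305, 211, 370.4, 186 and 184 CPM. The level of 3 of 5 diabetic hearts was below that of every control heart, and WT diabetic replicates 1 and 3 lay within the range of the controls. The mean was 428 ± 106 CPM in controls and 251 ± 83.0 CPM in diabetic rats (SD, n = 5 each).

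The log2 fold change of Gja1 with diabetes in WT was -0.77 (standard error 0.20, 95% confidence interval -1.19 to -0.34), a level 41.3% lower, and the gene was called (adjusted p = 0.0152 from edgeR). It was -0.71 and still called without both libraries apart (adjusted p = 0.0430 from edgeR). A fit of only the 10 WT libraries gave the same -0.77 without a call (adjusted p = 0.0622).

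In VegfbKO rats, Gja1 was at 546, 538, 380.4, 539 and 567 CPM in control replicates 1 to 5. In VegfbKO diabetic replicates 1 to 5 it was at 501, 483, 362, 345 and 353 CPM. The groups overlapped through VegfbKO control replicate 3, which was low, and 3 of 5 diabetic hearts were below every control. The mean was 514 ± 75.7 CPM in controls and 409 ± 76.2 CPM in diabetic rats (SD, n = 5 each). With a log2 fold change of -0.33 (standard error 0.20, 95% confidence interval -0.75 to 0.09), Gja1 was not called (adjusted p = 0.369 from edgeR). The value without both libraries apart was -0.42 (adjusted p = 0.280 from edgeR).

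Among diabetic rats, Gja1 was higher on average in VegfbKO than in WT hearts, with 2 of 5 VegfbKO rats above every WT rat. The log2 fold change was 0.70 (standard error 0.20, 95% confidence interval 0.28 to 1.13), and 0.861% of the genes tested had a smaller p, yet the gene was not called over all genes (adjusted p = 0.303 from edgeR). DESeq2 called it at the same log2 fold change of 0.70 (adjusted p = 0.0497). Without both libraries apart the log2 fold change was 0.56 (adjusted p = 0.427 from edgeR), and without WT diabetic replicate 3 it was 0.88 and called (adjusted p = 0.0307). In control hearts the log2 fold change of VegfbKO against WT was 0.27 (95% confidence interval -0.16 to 0.69, adjusted p = 1.00 from edgeR), with 1 of 5 VegfbKO rats above every WT rat. It was 0.16 without WT control replicate 4 and 0.39 without WT control replicate 2, and not called in either case.

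**Figure D2:**
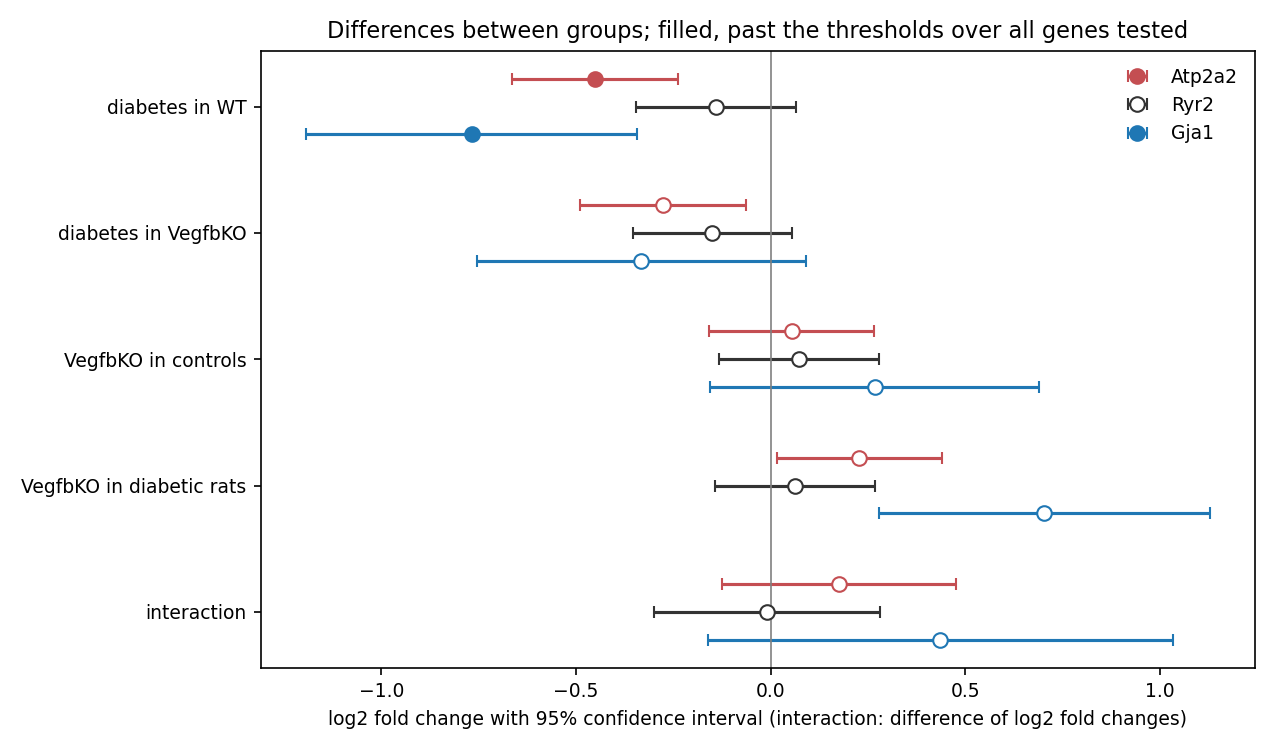
log2 fold change (horizontal axis) of each gene in the 4 comparisons of groups and the interaction, with 95% confidence intervals from edgeR's quasi-likelihood fit; filled points are called over all genes tested. The filled points are Atp2a2 at -0.45 and Gja1 at -0.77, both for diabetes in WT.

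A call in one genotype and not in the other does not show that the response differed, so the difference of the responses was tested as an interaction. It was 0.17 for Atp2a2 (95% confidence interval -0.13 to 0.47), -0.01 for Ryr2 (-0.30 to 0.28) and 0.44 for Gja1 (-0.16 to 1.03), on the log2 scale, where a positive value stands for a smaller fall in VegfbKO. None of the 3 passed the adjusted p of 0.05 (adjusted p = 1.00 for each from edgeR). The interaction was 0.19 for Atp2a2, -0.079 for Ryr2 and 0.29 for Gja1 when both libraries apart were left out, and none passed. With 1 library left out, that of Ryr2 ranged from -0.091 to 0.061. The interval of Gja1 reaches from a larger to a much smaller fall in VegfbKO, so neither an equal nor a different response was shown. Over all genes, edgeR called 0% in the interaction (0 of 14293), and DESeq2 and edgeR's likelihood ratio test also called 0. In the main edgeR fit 600 genes had an unadjusted p under 0.05. That is less than a share of 0.05 of the genes tested, the share expected if no gene differed.

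The group means of each gene followed the same order, highest in VegfbKO controls, then WT controls, VegfbKO diabetic rats and WT diabetic rats. The order turned in part when libraries were left out, since the fitted difference between VegfbKO and WT controls was -0.010 for Atp2a2 without WT control replicate 3, and that between VegfbKO and WT diabetic rats was -0.017 for Ryr2 without VegfbKO diabetic replicate 1 and -0.00311 without both libraries apart. Neighbours in this order overlapped in each gene. The difference between VegfbKO and WT controls was not called in any of the 3 genes, and WT controls were not tested against VegfbKO diabetic rats. For Gja1 the means of WT controls and VegfbKO diabetic rats lay close, at 428 and 409 CPM. Their order rests on WT control replicate 2, the highest WT control at 564 CPM, since the mean of the other WT controls lies below 409 CPM. It was not followed in the fits with libraries left out. The step from VegfbKO diabetic to WT diabetic rats, from 409 to 251 CPM in Gja1, from 7043 to 6014 CPM in Atp2a2 and from 1582 to 1515 CPM in Ryr2, was not called in the main edgeR fit, while Gja1 was called by DESeq2 and in edgeR without WT diabetic replicate 3. From the lowest to the highest of the 20 hearts, the level spanned 1.69-fold for Atp2a2, 1.52-fold for Ryr2 and 3.09-fold for Gja1.

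Counting error was small beside this spread. The members had between 2505 and 241627 estimated counts per library, and the largest counting error was 0.554% for Atp2a2, 1.02% for Ryr2 and 2.00% for Gja1, as a coefficient of variation that covers counting only. The fitted biological coefficient of variation between rats was 14.1% for Atp2a2, 12.7% for Ryr2 and 22.3% for Gja1, against a median of 13.4% over the genes tested. Gja1 was thus more variable than 77.1% of the genes tested.

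The members were also placed among all genes. With diabetes in WT, 2 of 3 members were called, both lower, where 13.1% of the genes tested were called (1876 of 14293) and 7.07% were called and lower. In VegfbKO 0 of 3 were called by edgeR, where 7.84% of the genes were called, a number of 1121 that was 643 without VegfbKO diabetic replicate 3. These numbers depended on the scaling, since with total counts only 687 genes were called in WT, with Gja1 but not Atp2a2 among them (adjusted p = 0.0176 and 0.205 from edgeR), and 276 genes in VegfbKO. In WT, 0 of 3 members had all diabetic hearts below all controls, which was so for 5.33% of the genes. Between control hearts of the genotypes 0.028% of the genes were called (4 of 14293), and between diabetic hearts 0.042% (6 of 14293), with 0 of 3 members in either in the main edgeR fit. The number for diabetic hearts was 65 with DESeq2 and 181 without WT diabetic replicate 3, both with Gja1 among them. It was 2 without VegfbKO control replicate 2, a heart outside this comparison that enters only through the shared filter, scaling and spread. Of all genes tested, 7.18% had a lower log2 fold change with diabetes in WT than Atp2a2, 2.42% than Gja1 and 27.2% than Ryr2. The median log2 fold change of the 3 members was -0.45 in WT and -0.28 in VegfbKO, and that of all genes was 0.01 in both. The 3 members were chosen with earlier results of these data known, so their place among all genes is a description only.

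**Figure D3:**
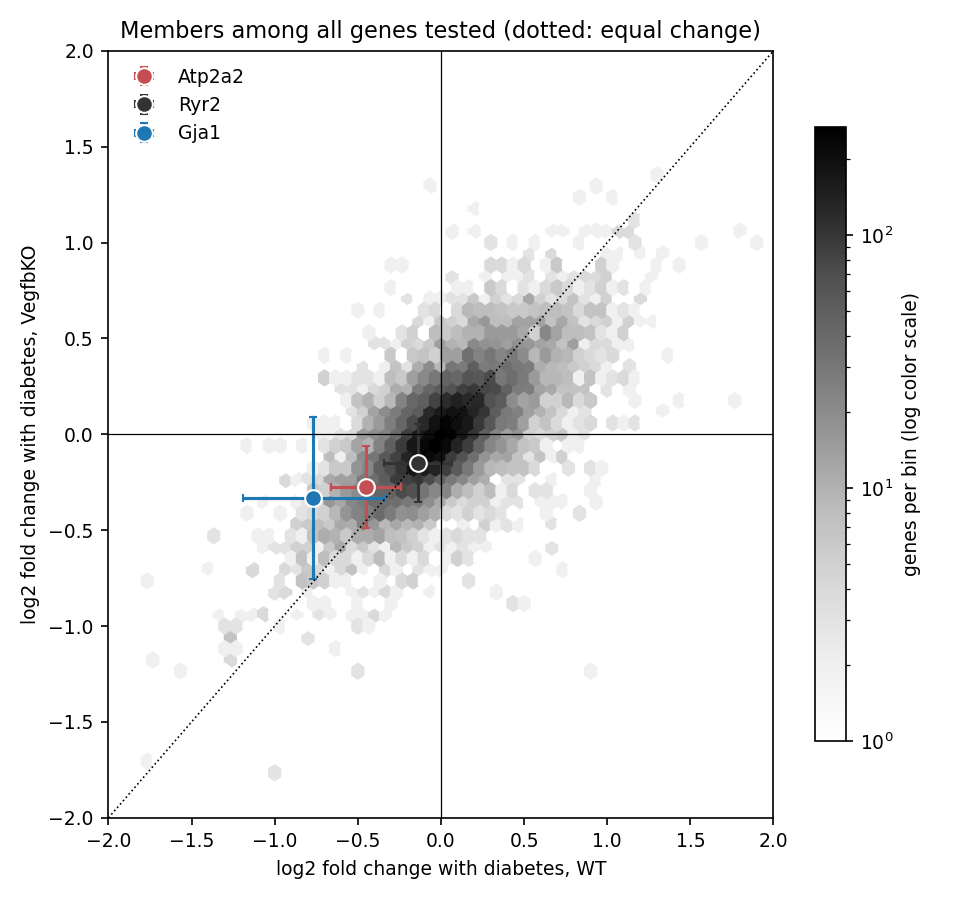
log2 fold change with diabetes in WT (horizontal axis) against that in VegfbKO (vertical axis) for the genes tested, as gene density in grey on a log color scale, with the 3 members and their 95% confidence intervals in color; 72 of 14293 genes lie outside the axis limits. Gja1 lies at -0.77 and -0.33, Atp2a2 at -0.45 and -0.28, and Ryr2 at -0.14 and -0.15, all in the quadrant of lower levels with diabetes in both genotypes.

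The diabetes response averaged over both genotypes was added after the data were seen. The log2 fold change of Atp2a2 was then -0.36 (95% confidence interval -0.51 to -0.21, adjusted p = 0.00069 from edgeR), and that of Gja1 was -0.55 (-0.85 to -0.25, adjusted p = 0.00836). Ryr2 had -0.15 (-0.29 to -0.000172, adjusted p = 0.143). Of the genes tested, 16.2% were called in this comparison, and 2 of 3 members were among them. With both libraries apart left out, Atp2a2 had -0.35 (adjusted p = 0.00139 from edgeR) and Gja1 -0.57 (adjusted p = 0.0150), and both were still called. Ryr2 then had a log2 fold change of -0.20 and an adjusted p of 0.0364 from edgeR, which passed the p-value threshold but not that on the fold change. With total counts only, Atp2a2 was not called (-0.37, adjusted p = 0.115 from edgeR), Gja1 was (-0.56, adjusted p = 0.00788), and the number of genes called fell from 2317 to 1427.

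The ratio of one member to another within a heart does not depend on how the library was scaled. The log2 ratio of Atp2a2 to Ryr2, pump over release channel, was 2.34, 2.36, 2.09, 2.35 and 2.32 in WT control replicates 1 to 5. In WT diabetic replicates 1 to 5 it was 1.66, 1.89, 2.30, 2.00 and 2.08. The ratio of 4 of 5 diabetic hearts was below that of every control heart, and WT diabetic replicate 3 lay among the controls. The mean log2 ratio fell from 2.29 ± 0.11 to 1.99 ± 0.24 (SD, n = 5 each), a difference of -0.31 (exact two-sided permutation p = 0.0159, adjusted p = 0.159 over 15 tests), which did not pass the adjusted threshold.

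The log2 ratio of Gja1 to Ryr2 was -1.81, -1.58, -1.95, -2.51 and -2.16 in WT control replicates 1 to 5. In WT diabetic replicates 1 to 5 it was -2.51, -2.89, -2.02, -2.89 and -2.93. WT diabetic replicates 2, 4 and 5 were below every control, WT diabetic replicate 1 was level with WT control replicate 4, the lowest control, and WT diabetic replicate 3 lay within the controls. The difference with diabetes in WT was -0.65 (exact permutation p = 0.0317, adjusted p = 0.159 over 15 tests). In VegfbKO diabetic replicates 1 to 5 the ratio was -1.94, -1.38, -1.99, -2.27 and -2.21, which put 3 of 5 above every WT diabetic heart. The difference between genotypes among diabetic rats was 0.69 (exact permutation p = 0.0238, adjusted p = 0.159 over 15 tests).

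The log2 ratio of Gja1 to Atp2a2 differed by -0.34 with diabetes in WT (exact permutation p = 0.198) and by -0.056 in VegfbKO (exact permutation p = 0.786). None of the 15 tests of the 3 ratios in 5 comparisons passed after adjustment, and the lowest adjusted p was 0.159. For 5 against 5 rats the smallest permutation p is 0.00794, and a single p of that size would be 0.119 when multiplied by the 15 tests, so 1 such p on its own would not pass. The interaction was 0.19 for Atp2a2 over Ryr2 (exact permutation p = 0.265), 0.28 for Gja1 over Atp2a2 (p = 0.427) and 0.47 for Gja1 over Ryr2 (p = 0.221).

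Leaving out both libraries apart moved some ratios. With diabetes in WT, the difference was then -0.29 for Atp2a2 over Ryr2, -0.59 for Gja1 over Ryr2 and -0.30 for Gja1 over Atp2a2. With diabetes in VegfbKO, it went from -0.12 to -0.021 for Atp2a2 over Ryr2, from -0.056 to -0.16 for Gja1 over Atp2a2 and was -0.18 with and without these 2 libraries for Gja1 over Ryr2. Among diabetic rats, VegfbKO against WT went from 0.18 to 0.25 for Atp2a2 over Ryr2, from 0.51 to 0.37 for Gja1 over Atp2a2 and from 0.69 to 0.62 for Gja1 over Ryr2. The interaction fell from 0.28 to 0.14 for Gja1 over Atp2a2 and was 0.26 for Atp2a2 over Ryr2 and 0.40 for Gja1 over Ryr2. Single libraries also moved the ratios. With diabetes in VegfbKO, Gja1 over Ryr2 was -0.32 without VegfbKO diabetic replicate 2 and -0.097 without VegfbKO diabetic replicate 4, and Gja1 over Atp2a2 turned to 0.033 without VegfbKO diabetic replicate 5. For Atp2a2 over Ryr2, VegfbKO against WT diabetic rats fell to 0.096 and the interaction to 0.11 without WT diabetic replicate 1, and without VegfbKO diabetic replicate 1 they were 0.28 and 0.29. The interaction of Gja1 over Atp2a2 ranged from 0.18 without VegfbKO diabetic replicate 1 to 0.42 without WT control replicate 4. None of these values passed after adjustment.

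**Figure D4:**
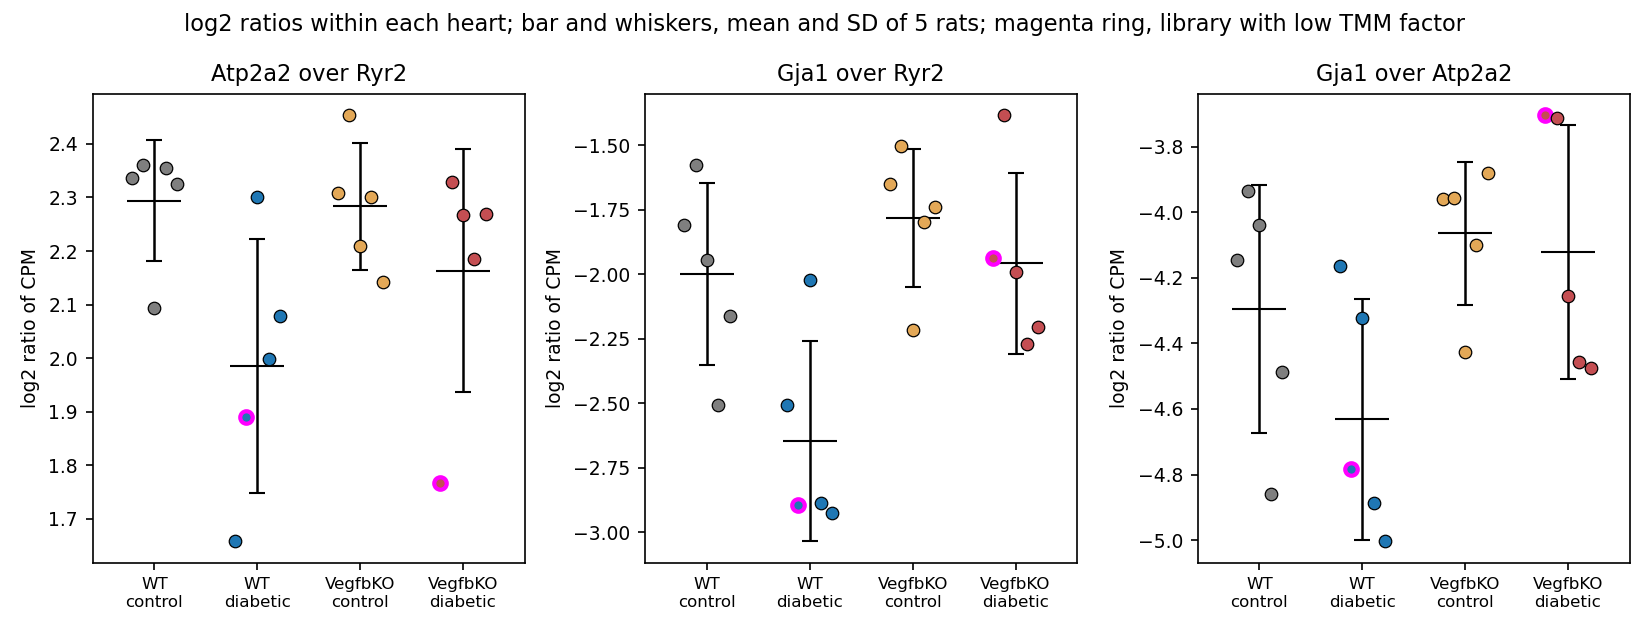
log2 ratio of CPM between members in each heart by group, with the mean (long bar) and SD (whiskers) of 5 rats and a magenta ring around WT diabetic replicate 2 and VegfbKO diabetic replicate 1. The mean log2 ratio of Atp2a2 over Ryr2 is 2.29 in WT control and 1.99 in WT diabetic rats, and that of Gja1 over Atp2a2 is -4.29 and -4.63.

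Across the 20 hearts, the log2 CPM of each pair of members varied together. The Pearson correlation of Atp2a2 and Gja1 was 0.69 (permutation p = 0.0007, adjusted p = 0.0021 over 3 pairs), the Spearman correlation was 0.64 (permutation p = 0.00277), and without the 2 hearts farthest from the median of Atp2a2 the Pearson correlation was 0.61. For Atp2a2 and Ryr2 the Pearson correlation was 0.52 (permutation p = 0.0173, adjusted p = 0.0260), the Spearman correlation 0.51 (permutation p = 0.0252) and the value without 2 hearts 0.58. For Ryr2 and Gja1 they were 0.48 (permutation p = 0.0340, adjusted p = 0.0340), 0.53 (permutation p = 0.0164) and 0.59. These values include the differences between groups. On deviations from the group means, the Pearson correlations fell to 0.19 for Atp2a2 and Gja1 (permutation p = 0.428), 0.21 for Atp2a2 and Ryr2 (permutation p = 0.366) and 0.21 for Ryr2 and Gja1 (permutation p = 0.378), and none passed the threshold. The Spearman correlations of the deviations were 0.045 (permutation p = 0.851), 0.24 (permutation p = 0.312) and 0.23 (permutation p = 0.321) in the same order, and without the 2 hearts farthest from the median of the first gene of the pair the Pearson correlations were -0.12, 0.23 and 0.30. Which pair had the highest correlation of levels depended on the scaling, since with total counts only the Pearson correlation was 0.81 for Atp2a2 and Ryr2, 0.70 for Atp2a2 and Gja1, and 0.54 for Ryr2 and Gja1. Without both libraries apart, the TMM-scaled levels over 18 hearts gave 0.70 for Atp2a2 and Gja1, 0.65 for Atp2a2 and Ryr2, and 0.46 for Ryr2 and Gja1, the last with an adjusted permutation p of 0.0533.

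**Figure D5:**
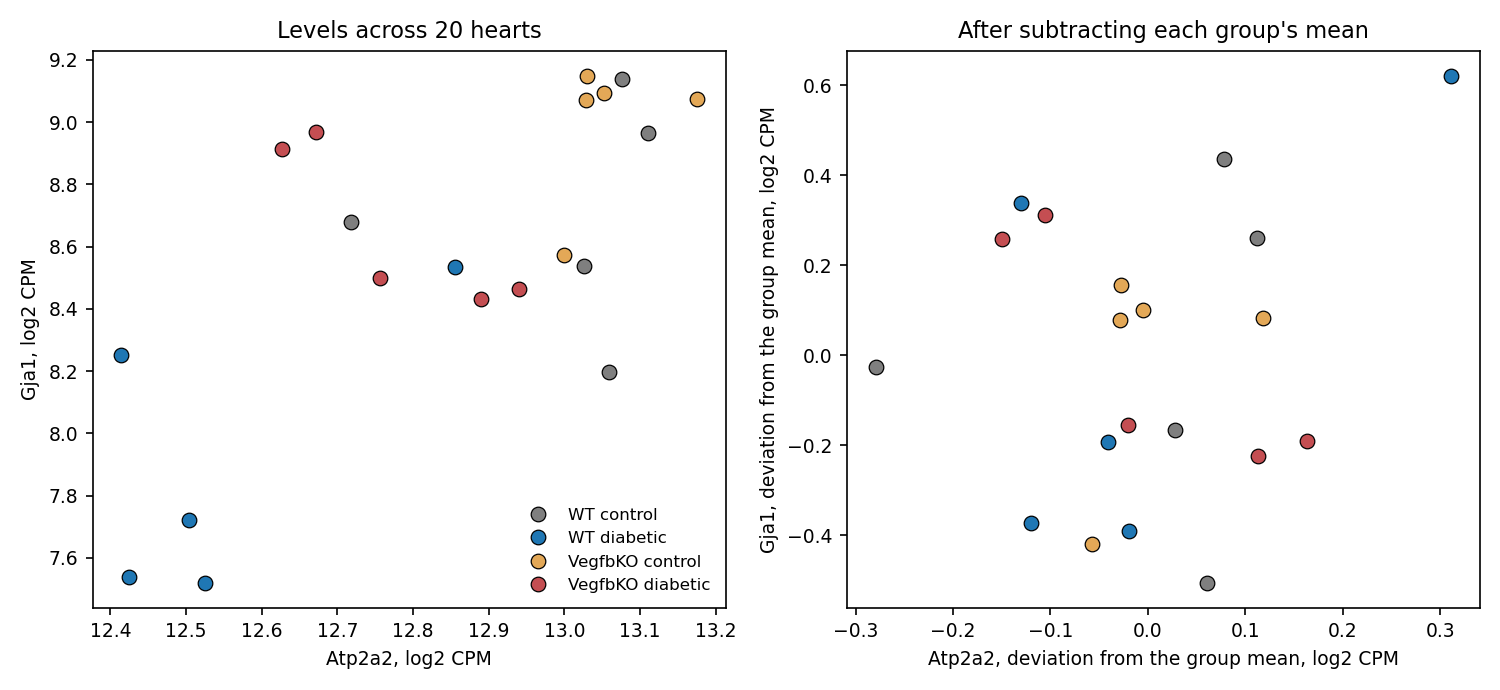
log2 CPM of Atp2a2 (horizontal axis) against Gja1 (vertical axis) in the 20 hearts, as levels on the left and as deviations from each group's mean on the right, colored by group. The Pearson correlation is 0.69 on the left and 0.19 on the right.

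For each member, the ID with the most similar log2 CPM over the 20 hearts was sought among 7979 genes with a mean of at least 10 CPM. For Atp2a2 it was ENSRNOG00000020812, with a Pearson correlation of 0.96, a Spearman correlation of 0.94 and a Pearson correlation of deviations from group means of 0.91. That ID had 135 ± 18.8 CPM in WT control, 75.0 ± 14.7 in WT diabetic, 137 ± 11.4 in VegfbKO control and 91.5 ± 15.2 CPM in VegfbKO diabetic rats (SD, n = 5 each). For Ryr2 it was ENSRNOG00000051440, with correlations of 0.86, 0.80 and 0.91 in the same order. Its level was 259.9 ± 12.5, 219 ± 16.4, 259 ± 14.8 and 216 ± 27.6 CPM in the groups in the same order. For Gja1 it was ENSRNOG00000042980, with correlations of 0.91, 0.89 and 0.81, at 132 ± 37.7, 87.7 ± 24.9, 154 ± 23.4 and 132 ± 13.6 CPM. These correlations are the highest of many and are given as a description, with no name or function for the IDs.

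Other genes of calcium handling, the intercalated disc and the cell types of the heart were not analysed here, because no table used here pairs the IDs with gene symbols. Whether the makeup of cell types moved with the differences above was not tested.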

How the data were processed

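The values were estimated counts per gene that the authors deposited, made from paired-end reads of directional libraries. The submitters' processing notes name kallisto, edgeR, DESeq2 and the build mRatBN7.2, with no versions. These deposited values were rounded to whole numbers. Of 24059 IDs, 3978 were at 0 in every library, and edgeR's filterByExpr left 14293. No column of the table was without a sample (0 columns). Counts were scaled with TMM factors and tested with edgeR 4.0.16 (R 4.3.3), by a robust quasi-likelihood fit of 4 group means over all 20 libraries, with Benjamini-Hochberg adjustment over all genes tested. The comparisons were diabetes in each genotype, genotype in control and in diabetic rats, and the interaction. Thresholds for a call were an adjusted p of 0.05 and, except for the interaction, a log2 fold change beyond 0.27 in either direction. log2 CPM used a prior count of 2. Ratios within a heart were tested with exact two-sided permutations of the rats, and the interaction by permuting genotype within control and within diabetic rats. Correlations used 100000 permutations and Benjamini-Hochberg adjustment over 3 pairs. The Python version was 3.11.15 and that of scipy 1.17.1. The fit and the permutation test were also run on simulated data, and no result given here rests on those runs.

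Also tried were DESeq2 1.42.0, the likelihood ratio test of edgeR, other scaling, other filters, thinned counts, fits of 10 libraries, a block for the replicate number, and each library left out. No pair of libraries within a group agreed within sampling noise (lowest chi-square per gene 6.20 over 40 pairs).

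The 3 members and the lists were chosen with earlier results of these data known. Gene names come from the definition of the members. The RefSeq table of 47357 genes has an Ensembl ID for 0 of them and gave symbols for 0 IDs, and the lists of calcium-handling genes and of cell type markers were not run. The rule for named genes was the 3 members and, for each, the ID with the highest Pearson correlation of log2 CPM among genes with a mean of at least 10 CPM.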

Additional observations from a re-analysis of the deposited data

Results flagged for a closer look

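Within each group of 5 hearts, the distance from the highest or lowest heart to the next one was divided by the whole range of the group, for the 3 genes and the 3 ratios. Of 24 such groups of values, 6 had a heart far from the others, where chance gives about 1 in 20 groups, or 1.2 here. The values are not independent, since a gene and its ratios share hearts.

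For Atp2a2, WT control replicate 3 was low at 6739.6 CPM (the next was 8341), and WT diabetic replicate 3 was high at 7413 CPM (the next was 5893). VegfbKO control replicate 4 was high at 9248 CPM (the next was 8492). It was only just past the limit for a flag, with a distance of 0.713 of the range against a limit of 0.71. Without WT control replicate 3 or WT diabetic replicate 3, Atp2a2 remained called with diabetes in WT. For Gja1, VegfbKO control replicate 3 was low at 380.4 CPM (the next was 538). The log2 ratio of Atp2a2 over Ryr2 was low in WT control replicate 3, at 2.09 (the next was 2.32), and in VegfbKO diabetic replicate 1, at 1.77 (the next was 2.18). VegfbKO diabetic replicate 1 is one of the libraries with a low TMM factor, a factor that cancels in a ratio. No ratio gave an interaction with an exact permutation p under 0.05.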

How the results depend on the processing

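Of 243 values of the members under alternatives other than leaving out 1 library, 232 kept their direction and their side of the threshold. Of 360 values with 1 library left out, 350 did. Most member results were not called in the main fit, so keeping their side mostly meant staying uncalled. The values with 1 library left out also cover libraries outside the comparison. Those libraries act only through the shared filter, scaling and spread, so they hardly test the member's difference. Atp2a2 with diabetes in WT lost its call with total counts only (log2 fold change -0.49, adjusted p = 0.205), as did its mean over both genotypes (-0.37), which was added after the data were seen. Gja1 with diabetes in WT lost its call with only the 10 libraries compared (-0.77, adjusted p = 0.0622). Calls were gained with DESeq2 for Atp2a2 with diabetes in VegfbKO (-0.28) and for Gja1 in VegfbKO against WT diabetic rats (0.70), and without WT diabetic replicate 3 for the latter (adjusted p = 0.0307), whose values with 1 library left out ranged from 0.60 to 0.88. The exact permutation p, which is not adjusted over genes, was under 0.05 where the adjusted p was not for Atp2a2 with diabetes in VegfbKO (-0.28), and for VegfbKO against WT diabetic rats in Atp2a2 (0.23) and Gja1 (0.74). Signs of small values turned. With 1 library left out, Atp2a2 in control hearts ranged from -0.010 (without WT control replicate 3) to 0.082, Ryr2 in diabetic hearts from -0.017 (without VegfbKO diabetic replicate 1) to 0.13, the Ryr2 interaction from -0.091 to 0.061, and the log2 ratios of Atp2a2 over Ryr2 between control hearts from -0.061 to 0.025 and of Gja1 over Atp2a2 with diabetes in VegfbKO from -0.16 to 0.033. Without both libraries apart, Ryr2 in diabetic hearts was at -0.00311, and the Ryr2 interaction was at 0.00641 with thinned counts and 0.028 with total counts only. The correlations on deviations from group means were 0.19, 0.21 and 0.21, none past the threshold, and the correlation of the levels of Ryr2 and Gja1 was 0.46 without both libraries apart.

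The number of genes called with total counts only was 687 with diabetes in WT, 276 in VegfbKO (61.2% of them higher, against 46.3% with TMM), 1427 over both genotypes and 3 for VegfbKO in diabetic rats. That last number was also 3 with only the 10 libraries compared and without robust estimation, 38 with the likelihood ratio test and 65 with DESeq2, and from 2 to 181 with 1 library left out (181 without WT diabetic replicate 3). With 1 library left out, the number for VegfbKO ranged from 643 (without VegfbKO diabetic replicate 3) to 1244. The cause of these shifts was not tested. The correlations of deviations between same-numbered rats were from -0.26 to 0.067 for diabetes in WT, -0.031 to 0.26 for diabetes in VegfbKO, 0.032 to 0.13 for VegfbKO in controls (all 5 positive) and -0.17 to 0.19 for VegfbKO in diabetic rats. In no comparison were all 5 above 0.1, and 0, 3, 3 and 2 of 10 libraries correlated best with their own number. The rats were taken as sharing a number only. A fit with the replicate number as a block gave -0.45 for Atp2a2 and -0.76 for Gja1 with diabetes in WT and 1785 genes called, and changed no call of a member. The alternative that removed count-gaining IDs found 3 IDs by its rule.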
